A study of Homo sapiens with 6 samples.

Results

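The genes described here encode calbindin (CALB1) and 9 S100 proteins (S100A2, S100A4, S100A6, S100A10, S100A11, S100A13, S100A14, S100A16 and S100P). These are small proteins with a helix-loop-helix motif called the EF hand, through which most of them bind calcium. The genes were taken by symbol from the deposited expression table and made up 10 of its 60605 genes. The set was proposed with the difference between the study's groups already known, so its differences are given as a description, without a test. The libraries came from MDA-MB-231, an established line of triple-negative breast cancer cells, and measured poly(A)-selected RNA. The study asked what changes in these cells when PUS1, an enzyme that converts uridine to pseudouridine in RNA, is depleted. The control group (shControl) carried a lentiviral negative control hairpin and the other group (shPUS1) a lentiviral hairpin against PUS1, with 3 libraries each, and both were selected with puromycin. The table names a single PUS1 hairpin, so an effect of losing PUS1 and an effect particular to that hairpin cannot be told apart.

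S100 proteins are found only in vertebrates. Most form dimers that open on binding calcium and then grip target proteins such as annexins and non-muscle myosin, and some are secreted and act on receptors such as AGER and TLR4. S100A4, S100A6, S100A10 and S100A11 are widely studied in motile and invasive tumour cells, while S100A7, S100A8, S100A9 and S100A12 are best known from skin and myeloid cells. Calbindin is a larger EF-hand protein that buffers calcium in neurons and in the kidney tubule. The small calbindin that vitamin D induces in the mammalian gut is an S100 protein, encoded by S100G. The closest relatives of CALB1 are calretinin (CALB2) and secretagogin.

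The promoters of the S100 genes are shown first, since their sequence was not used to choose the genes and can be read beside the levels in these cells. RefSeq windows (GRCh38.p14) of 250 bases before to 50 bases after the start were found for 19 of the 21 S100 genes in the table, 26 windows in all. The stretches below lie upstream of the RefSeq start, are written 5′ to 3′ on the gene's strand and lie outside every exon annotated in GENCODE 29. Capitals mark CG dinucleotides and the letters TATAAA. S100A11 (chr1:152037036-152037135, minus strand) and S100A16 (chr1:153609356-153609455, minus strand) stand for the highly expressed members. S100A14 (chr1:153616356-153616455, minus strand) stands for a barely detected member, and S100A7A (chr1:153416420-153416519, plus strand), S100A9 (chr1:153357754-153357853, plus strand) and S100G (chrX:16650058-16650157, plus strand) for the family genes that were near or at 0.
S100A11: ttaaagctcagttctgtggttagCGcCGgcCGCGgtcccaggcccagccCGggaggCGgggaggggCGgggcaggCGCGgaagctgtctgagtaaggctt
S100A16: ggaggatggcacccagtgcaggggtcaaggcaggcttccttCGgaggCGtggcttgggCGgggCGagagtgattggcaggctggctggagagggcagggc
S100A14: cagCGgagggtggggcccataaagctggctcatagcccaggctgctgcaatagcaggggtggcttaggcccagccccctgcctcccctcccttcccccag
S100A7A: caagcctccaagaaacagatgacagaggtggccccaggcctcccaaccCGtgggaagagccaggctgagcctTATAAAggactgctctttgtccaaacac
S100A9: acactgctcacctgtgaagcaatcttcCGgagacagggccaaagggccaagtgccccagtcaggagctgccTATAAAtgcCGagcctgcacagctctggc
S100G: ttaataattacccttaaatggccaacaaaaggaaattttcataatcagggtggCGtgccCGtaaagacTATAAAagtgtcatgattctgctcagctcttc

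Of these stretches, that of S100A11 holds 9 CG dinucleotides, that of S100A16 holds 4 and that of S100A14 holds 1, but stretches of other genes did not follow the level: a second S100A16 window gave 0, S100A4 gave 3, S100A3 gave 2 and the barely detected S100A1 gave 4. The TATAAA of S100A7A begins 28 bases before the start and that of S100A9 begins 29 bases before it, the usual distance of a TATA box. That of S100G begins 32 bases before the start, but those of S100Z and S100A12 begin 11 and 8 bases before it. Matches below were counted at any position in the window. Levels are compared between genes as FPKM, counts scaled to the exonic length of the gene and to the library total, and the limits of 10 and 1 FPKM used next were set after the levels were seen. Of the 7 S100 genes with a mean of at least 10 FPKM, 2 had TATAAA on either strand of a window (S100A4 and S100A13) and 6 had GGGCGG, the letters of a GC box. A match in any window counted. S100A16 had GGGCGG at 153609306 to 153609605 but not at 153613088 to 153613387, where it had 3 CG dinucleotides. S100A13 had it only at 153634312 to 153634611, outside the span of the gene in the table, which ends at 153631360. Of the 10 genes under 1 FPKM that had a window, 8 had TATAAA and 1, S100A9, had GGGCGG. Upstream of the start, S100A7 and S100A7A, both among the 8, share a long run of identical bases, so they are not independent of each other. Counted by gene in the same way, 14% of all 27305 genes with a window held TATAAA and 48.3% held GGGCGG, and of all 35116 single windows 11.5% and 45% did. The window richest in CG held between 5 and 32 CG dinucleotides in the genes of at least 10 FPKM and between 1 and 6 in those under 1 FPKM. S100A10 with 32, S100A6 with 31 and S100A11 with 22 were the richest, and the median over all genes of the richest window was 16. The features overlapped between the levels: S100A4 and S100A13 were well expressed and carried TATAAA, S100A14 and S100A1 were barely detected without it, and S100A3 at 17.0 FPKM had 5 CG dinucleotides, as many as S100A14, S100P and S100A9. A match of letters is a description of the window and not evidence of a bound factor.

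**Figure D1:**
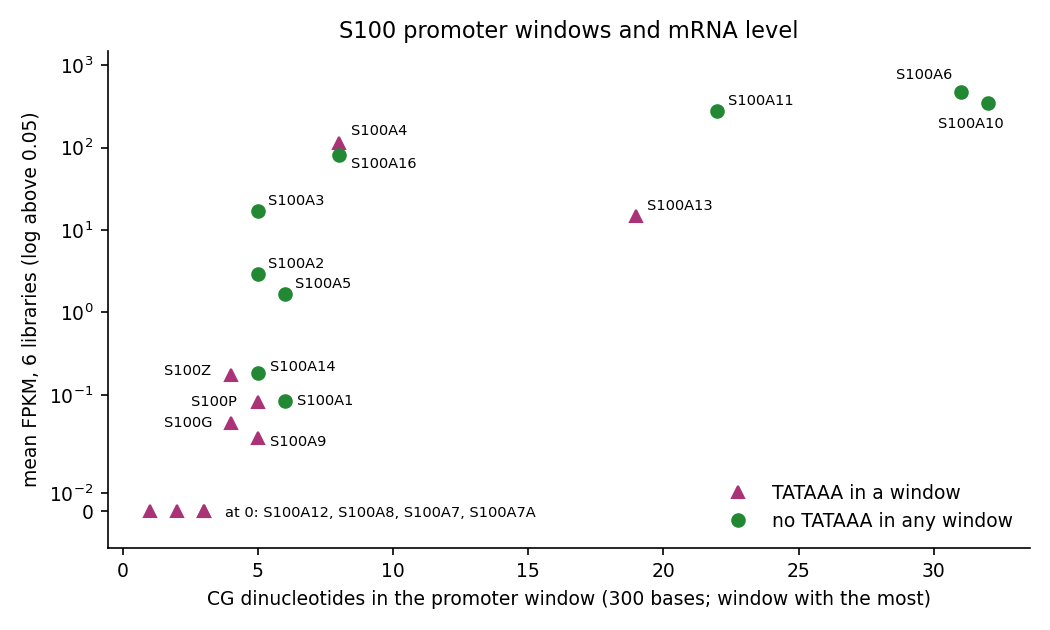
Mean FPKM over the 6 libraries (vertical axis, logarithmic above 0.05) against the number of CG dinucleotides in the CG-richest promoter window (horizontal axis) for the 19 S100 genes with a window, with triangles for genes with TATAAA in any window. S100A6, S100A10 and S100A11 lie at the upper right, genes with 4 to 8 CG dinucleotides span 0.040 to 114 FPKM, and the 4 plotted genes listed at 0 all carry TATAAA.

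Before the results, 1 library has to be set apart. The libraries held between 14241505 and 19625998 estimated counts, of which shControl replicate 2 had the most. Across genes, its log2 CPM correlated with the other shControl libraries at 0.9505 and 0.9521, against 0.981 between those, and the shPUS1 libraries correlated with each other at 0.9872 or more. CPM here means counts per 1000000 of the library total after TMM scaling. Results that rest on shControl replicate 2, counts of called genes among them, are therefore given with and without it. Nothing in the labels says that replicates came from separate cultures beyond their name of biological replicates, and p-values measure the spread between these libraries. Lower RNA per cell and fewer cells that express a gene cannot be told apart in bulk RNA.

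Across all 14748 genes tested, 1.74% had an adjusted p under 0.05 and a higher level in shPUS1, and 0.841% a lower one (edgeR). With a log2 fold change of at least 1 in size the shares were 0.888% higher and 0.481% lower. Groups did not overlap for 18.8% of genes on the higher side and 17.3% on the lower side. At an unadjusted p under 0.05 the shares were 12.6% higher and 12.8% lower, and DESeq2 called 6.63% higher and 5.08% lower of the same genes at an adjusted p under 0.05. Without shControl replicate 2, edgeR called 10% of them higher and 8.88% lower. The counts for gene lists below are to be read against these shares.

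PUS1 itself had 14.5, 27.5 and 12.1 CPM in the shControl libraries and 6.57, 5.47 and 5.37 CPM in the shPUS1 libraries. All shPUS1 values lay below all shControl values, and shControl replicate 2 was the highest. The log2 fold change was -1.64 (SE 0.32, adjusted p = 0.0462 by the edgeR quasi-likelihood test). An exact two-sided permutation test of this gene alone gave p = 0.1, the smallest that 3 against 3 libraries allow. With shControl replicate 2 left out it was -1.20 (adjusted p = 0.00311, edgeR). The call was lost without shControl replicate 1 (adjusted p = 0.0905) and without each of the shPUS1 libraries (adjusted p between 0.192 and 0.253, edgeR).

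The cell line was checked by its markers. All 7 genes listed as high in MDA-MB-231 passed the filter on low counts, and their summed level was 5420, 6730 and 5410 CPM in shControl and 4690, 4380 and 4650 CPM in shPUS1. Of these 7, edgeR called 0, and 4 were lower at an unadjusted p under 0.05, beside 12.8% of all genes. DESeq2 called AXL, PLAUR and vimentin (VIM) lower, beside 5.08% of all genes. Without shControl replicate 2, edgeR also called AXL, PLAUR and VIM lower (adjusted p = 0.0140, 0.0259 and 0.0305), beside 8.88% of all genes. Groups did not overlap for AXL, PLAUR, VIM and CD44 on the lower side and for MSN on the higher side, beside 17.3% and 18.8% of all genes. The log2 fold changes of the 7 lay between -0.60 and 0.20. The 5 genes listed as low or absent, among them the oestrogen and progesterone receptors, summed to between 59.3 and 81.4 CPM, with ERBB2 the most abundant. Leukocyte and endothelial markers summed to at most 10.9 CPM, with CD3E at 0, and keratinocyte markers to at most 29.9 CPM, with IVL, KRT1, KRT5 and LORICRIN at 0. The 6 fibroblast markers summed to 50.3, 16.7 and 61.0 CPM in shControl and to 88.4, 97.9 and 84.9 CPM in shPUS1, with PDGFRB the most abundant and none at 0 in every library. The 4 markers that were tested all had higher mean values in shPUS1, and the groups of COL1A1, PDGFRB and LUM did not overlap, beside 18.8% of all genes on the higher side. COL1A1 averaged 13.9 CPM in shControl and 29.9 CPM in shPUS1 (adjusted p = 0.110 by edgeR and 0.0161 by DESeq2), and PDGFRB 27.1 and 54.0 CPM (adjusted p = 0.195 by edgeR and 0.0717 by DESeq2). LUM had a log2 fold change of 2.82 (SE 0.56, adjusted p = 0.0462, edgeR). COL1A1 (6.76 CPM) and PDGFRB (9.70 CPM) were lowest in shControl replicate 2. Without it, edgeR called 3 of the 4 higher, beside 10% of all genes. These were COL1A1 by 0.77 on the log2 scale (adjusted p = 0.0123, edgeR), PDGFRB by 0.59 (adjusted p = 0.0163) and LUM by 2.32 (adjusted p = 0.00495). DCN and COL1A2 had at most 0.413 and 0.274 CPM in any library. The part of these cells or genes in the differences below was not tested.

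The S100 members covered a wide range of levels. S100A6, also called calcyclin, was the most abundant, with 408.08, 617.00 and 445.82 FPKM in shControl and 454.17, 472.89 and 470.83 FPKM in shPUS1. S100A10, the partner of annexin A2 on the cell surface, had 349.73, 365.78 and 312.44 FPKM in shControl and 343.10, 345.83 and 377.83 FPKM in shPUS1. S100A11, which binds annexin A1, had 211.56, 411.94 and 215.95 FPKM in shControl and 254.19, 257.15 and 307.64 FPKM in shPUS1. The ranges of S100A6 and S100A10 did not overlap, while those of S100A10 and S100A11 did because of the single high value of S100A11 in shControl replicate 2. S100A4, known as metastasin and a binder of non-muscle myosin, followed with a mean of 114 FPKM, and S100A16, one of the most broadly expressed S100 proteins, with 80.5 FPKM. The lowest S100A4 library (93.4 FPKM) was still above the highest S100A16 library (89.1 FPKM).

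Below these stood S100A3 at 17.0 FPKM, a family gene that was not a member, and S100A13 at 14.7 FPKM, which takes part in the release of growth factors that lack a signal peptide. Their ranges overlapped. S100A2, a gene of epithelial cells, averaged 2.92 FPKM, S100A5 1.68 FPKM and CALB1 1.57 FPKM, and neighbours among these overlapped. The order of these means over both groups is not that within each group: CALB1 (2.94 FPKM) stood above S100A2 (2.33 FPKM) and S100A5 (1.97 FPKM) in shPUS1 only, and S100A3 stood below S100A13 in shControl (12.2 against 14.8 FPKM) and above it in shPUS1 (21.9 against 14.5 FPKM). Over both groups, S100A14 (0.182 FPKM) and S100P (0.0817 FPKM) had the lowest means of the members. In shControl, CALB1 (0.187 FPKM) lay below S100A14 (0.217 FPKM). S100A7, S100A7A, S100A7L2, S100A8, S100A12 and S100B had no count in any library. Together the 21 S100 genes took 0.130% ± 0.0216 (SD, n = 3) of the counts in shControl and 0.130% ± 0.00491 (SD, n = 3) in shPUS1. By library these were 0.118%, 0.154% and 0.116% in shControl and 0.125%, 0.129% and 0.135% in shPUS1, so that without shControl replicate 2 the shControl mean was 0.117% and below every shPUS1 library. S100A6, S100A10, S100A11 and S100A4 supplied between 83.7% and 86.8% of these counts in every library.

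**Figure D2:**
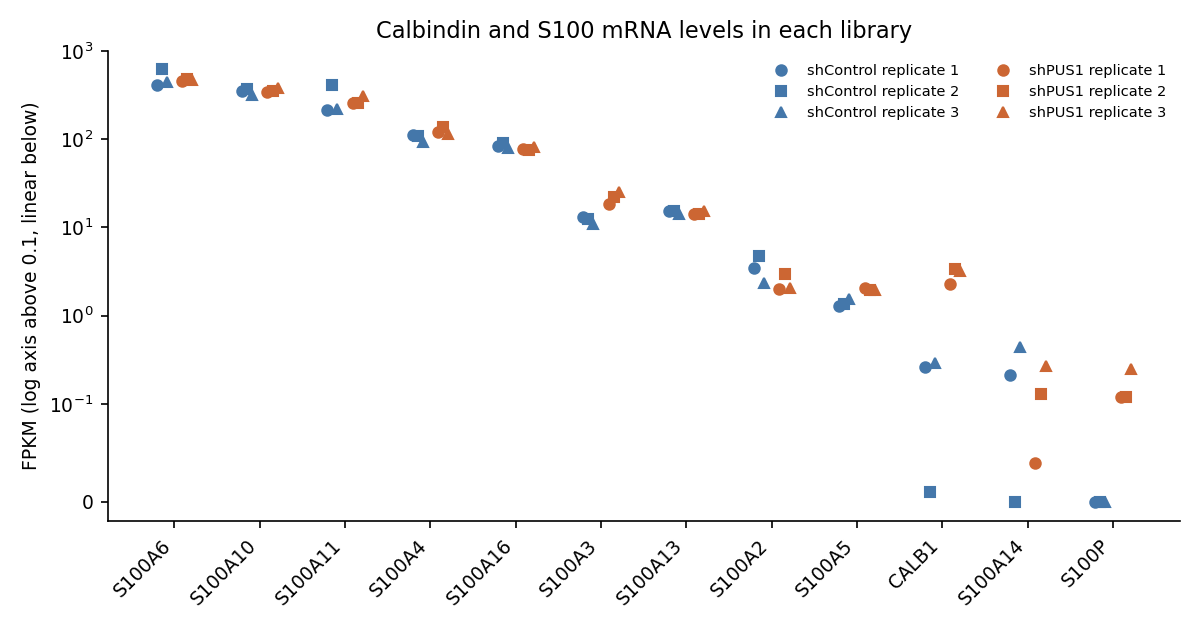
FPKM of the 10 members and of S100A3 and S100A5 in each library (vertical axis, logarithmic above 0.1 and linear below), with shControl libraries in blue and shPUS1 libraries in orange and 1 marker shape per replicate number. Points of the groups intermix for S100A6, S100A10, S100A11, S100A13 and S100A16, CALB1 is higher in all 3 shPUS1 libraries, and the square of shControl replicate 2 stands above the other controls for S100A6 and S100A11.

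CALB1 (ENSG00000104327, minus strand of chromosome 8, 90058608 to 90095475 in the table's coordinates) had the widest difference of the set. It had 28, 1 and 29 counts in shControl and 295, 444 and 387 counts in shPUS1, which is 1.83, 0.0524 and 1.98 CPM against 16.4, 24.3 and 22.8 CPM. All shPUS1 values lay above all shControl values, and among the controls shControl replicate 2 was nearly empty. Its single count allows a level between 0.00133 and 0.292 CPM (exact Poisson 95% interval, counting error only), below both other controls. The group means were 1.29 ± 1.07 CPM in shControl and 21.2 ± 4.19 CPM in shPUS1 (SD, n = 3 each). The fitted log2 fold change was 4.08 (SE 0.71), and 3.46 (SE 0.23) without shControl replicate 2. Even in shPUS1 the mean of 2.94 FPKM was far below the 466 FPKM of S100A6.

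The S100 members showed no difference of this size. S100A4 had 103, 106 and 85.7 CPM in shControl and 115, 130 and 110 CPM in shPUS1. With all libraries it was the only S100 member past the filter on low counts whose groups did not overlap, and its log2 fold change was 0.27 (SE 0.13), or 0.32 without shControl replicate 2. S100A16 (138, 156 and 129 CPM against 132, 128 and 140 CPM) and S100A13 (33.1, 34.5 and 30.0 CPM against 31.6, 31.8 and 34.2 CPM) had overlapping groups, with log2 fold changes of -0.08 (SE 0.12) and 0.00 (SE 0.13). S100A10 differed by 0.07 (SE 0.12) on the log2 scale.

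For S100A6 and S100A11 the sign of the difference changed when shControl replicate 2 was left out. S100A6 had 389, 616 and 420 CPM in shControl and 447, 461 and 462 CPM in shPUS1. The shPUS1 libraries lay close together between the other shControl libraries and shControl replicate 2. Its log2 fold change was -0.06 (SE 0.18) with all libraries and 0.17 (SE 0.09) without that replicate. S100A11 had 135, 275 and 136 CPM in shControl and 167, 167 and 202 CPM in shPUS1, and its log2 fold change went from -0.03 (SE 0.28) to 0.39 (SE 0.11). With that replicate kept, its sign also changed: 0.03 with limma on log2(FPKM + 1) and 0.06 with the replicate number as a block. It was 0.02 without shPUS1 replicate 1 and 0.02 without shPUS1 replicate 2. S100A2 had 5.30, 7.44 and 3.54 CPM in shControl and 3.17, 4.54 and 3.19 CPM in shPUS1, with overlapping groups and a log2 fold change of -0.58 (SE 0.32), or -0.29 (SE 0.27) without the replicate. shControl replicate 2 was the highest control for 7 of the 8 members tested (87.5%), against 42.4% of all genes tested. It was the lowest control for the remaining member, CALB1.

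**Figure D3:**
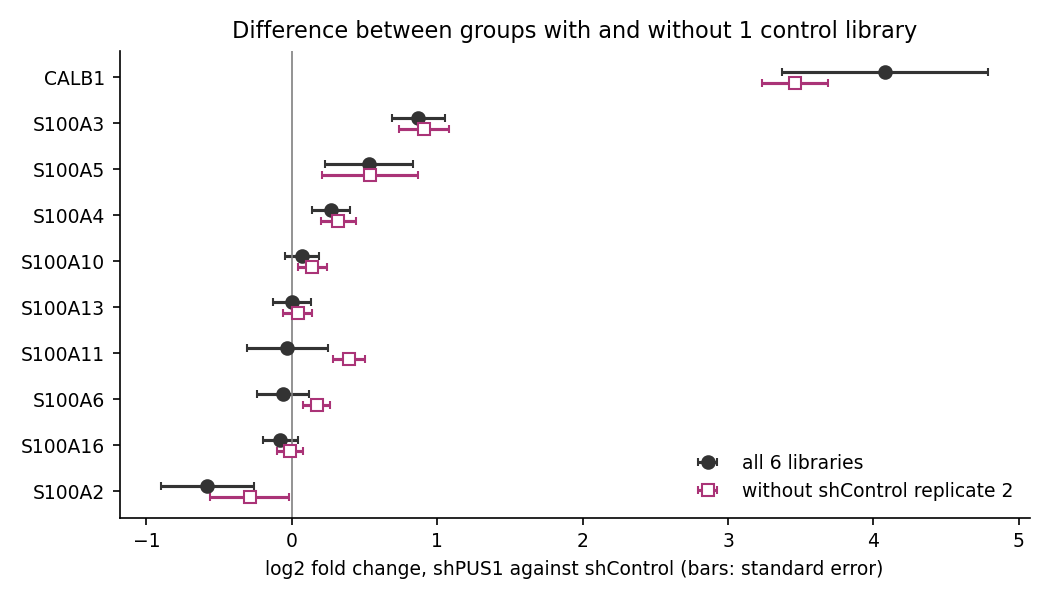
Log2 fold change of shPUS1 against shControl (horizontal axis, bars show the standard error) for CALB1 and the 9 S100 genes that passed the filter on low counts, with all 6 libraries (filled circles) and without shControl replicate 2 (open squares). CALB1 lies at 4.08 and 3.46, and S100A6 and S100A11 move from just below 0 to above it.

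S100A14 and S100P did not pass the filter on low counts. S100A14, a gene of epithelial cells, had 4, 0 and 8 counts in shControl and 1, 3 and 6 counts in shPUS1. S100P, first found in placenta and a ligand of AGER, had no count in any shControl library and 1, 1 and 2 counts in shPUS1. No library of S100P exceeded 3 counts, which correspond to between 0.157 and 0.204 CPM, and no fold is given for either gene.

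Of the 8 members past the filter on low counts, CALB1 and S100A4 had groups that did not overlap, both with higher shPUS1 values, beside 18.8% of all genes tested. Without shControl replicate 2 this held for CALB1, S100A4, S100A6, S100A10 and S100A11, beside 25.3% of all genes on the higher side and 25.7% on the lower side, and for 0 members on the lower side. Because the set was proposed from the same comparison, nothing is read from these counts.

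Most of the set is 1 block of the genome. S100A2, S100A4, S100A6, S100A10, S100A11, S100A13, S100A14 and S100A16 lie on chromosome 1, between 151982915 and 153632039, with 17 of the 21 S100 genes of the table. S100A6 spans 153534599 to 153536244 and S100A4 spans 153543613 to 153550136, both on the minus strand, and S100P lies on the plus strand of chromosome 4 (6693878 to 6697170). The table names no genome build, and its starts of S100A10 and S100P are those of the RefSeq windows on GRCh38.p14. The block of 1649 kb holds 92 genes of the table, including the filaggrin family of the skin barrier, and 13 of them passed the filter on low counts, 9 of which are S100 genes. Of the 13, 7 are members, so the block is described without a test. Groups did not overlap for 3 of the 13 (S100A3, S100A4 and S100A5) on the higher side and for 0 on the lower side, beside 18.8% and 17.3% of all genes tested, and nothing is read from so few genes. The median log2 fold change of the 13 was 0.07, against -0.03 over all genes tested.

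Of the 12 other S100 genes, 2 passed the filter on low counts. S100A3, a cysteine-rich protein of the hair cuticle, had 10.8, 10.9 and 8.86 CPM in shControl and 15.8, 18.7 and 21.3 CPM in shPUS1. The groups were apart, and shControl replicate 2 was close to shControl replicate 1. The log2 fold change was 0.87 (SE 0.18), with an adjusted p of 0.0522 by edgeR and 0.00257 by DESeq2, and of 0.00949 by edgeR without shControl replicate 2. S100A3 lies within the span of S100A4 on the same strand, sharing 1930 bases of it, but the transcripts of either gene share no stretch of 100 bases with any other gene. S100A5, a calcium, zinc and copper binder known from olfactory neurons, had 0.982, 1.10 and 1.16 CPM in shControl and 1.61, 1.53 and 1.53 CPM in shPUS1 (log2 fold change 0.53, SE 0.30, adjusted p = 0.306 by edgeR).

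S100A1, the S100 protein of heart muscle, overlaps S100A13 on the opposite strand. It had 4.2, 8 and 10 estimated counts in shControl and 1 in each shPUS1 library, too few for the filter, and without the filter its adjusted p was 0.0919 (edgeR). Whether the counting used strand is not given in the sources used here, so reads of S100A1 and S100A13 in the overlap may not be told apart. S100A13 also shared 13.6% of its 100-base stretches with other genes. The locus that held the most of these, the unnamed ENSG00000271853 on its own strand, had between 2 and 13.9 counts. S100A11 and S100A6 are each crossed by an unnamed locus on the opposite strand, with at most 2 counts in any library.

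Outside the S100 family, the nearest relatives of calbindin were among 44 small EF-hand sensors and buffers, of which 21 were tested. With edgeR, 1 was higher, 1 was lower and 19 did not pass, against 2 higher and 6 lower at an unadjusted p under 0.05 (12.6% and 12.8% of all genes) and 1 higher and 2 lower with DESeq2 (6.63% and 5.08% of all genes). Groups did not overlap for 3 genes on the higher side and 8 on the lower side of the 21, beside 18.8% and 17.3% of all genes, and the median log2 fold change was -0.14. The fit without shControl replicate 2 called 2 higher (CALB2 and VSNL1) and 4 lower (EFHD2, SRI, PDCD6 and CETN3), beside 10% and 8.88% of all genes. CALB2, the close relative calretinin, had 77.0, 64.7 and 68.6 CPM in shControl and 116, 109 and 139 CPM in shPUS1. All shPUS1 values were higher, and the log2 fold change was 0.79 (SE 0.14, adjusted p = 0.0413, edgeR). EFHD2, also called swiprosin-1, a calcium-binding regulator of actin, fell from 246, 253 and 224 CPM to 137, 123 and 142 CPM. Its log2 fold change was -0.85 (SE 0.12, adjusted p = 0.0248, edgeR). The most abundant gene of the list, the calmodulin gene CALM2 (125 FPKM), differed by -0.10 on the log2 scale (adjusted p = 0.666, edgeR).

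The 10 EF-hand proteins of the secretory pathway were all tested, and none passed at an adjusted or an unadjusted p under 0.05 with edgeR, nor an adjusted one with DESeq2. With shControl replicate 2 left out, edgeR called STIM2 higher (adjusted p = 0.0413) and RCN3 lower (adjusted p = 0.0411). Of the 10 secretory genes, 1 had groups without overlap on the higher side and 1 on the lower side, beside 18.8% and 17.3% of all genes. Their most abundant gene, the reticular calcium binder CALU, had 1080, 635 and 1050 CPM in shControl and 1150, 1110 and 1150 CPM in shPUS1, again with shControl replicate 2 apart (log2 fold change 0.31, adjusted p = 0.363, and 0.09 without that library, adjusted p = 0.460, edgeR). Among 7 epidermal proteins with an S100-like start, 3 were tested and none passed by edgeR at an adjusted or an unadjusted p, or by DESeq2, or by edgeR without shControl replicate 2. The best expressed, filaggrin (FLG), averaged 1.10 FPKM.

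The annexins and the other partners of S100 proteins can be set beside the shares over all genes tested: 1.74% higher and 0.841% lower with edgeR, 12.6% and 12.8% at an unadjusted p, 6.63% and 5.08% with DESeq2, and 10% and 8.88% with edgeR without shControl replicate 2. Of 13 annexins, which bind membranes in the presence of calcium, 11 were tested, 1 was higher and 0 were lower with edgeR, against 4 higher and 2 lower at an unadjusted p under 0.05 and 2 higher and 1 lower with DESeq2. With shControl replicate 2 left out, edgeR called ANXA3 and ANXA8 higher and ANXA4 lower. Of the 11, 4 had groups without overlap on the higher side and 2 on the lower side, beside 18.8% and 17.3% of all genes. ANXA3 rose from 179, 158 and 146 CPM to 262, 262 and 291 CPM. Its log2 fold change was 0.76 (SE 0.12, adjusted p = 0.0341, edgeR). ANXA5, the most abundant at 197 FPKM, differed by 0.34 on the log2 scale (adjusted p = 0.169, edgeR). Of 16 binding partners and receptors, 15 were tested, 1 was higher and 0 were lower with edgeR, against 2 and 2 at an unadjusted p and 0 and 1 with DESeq2, and their median log2 fold change was -0.14. With shControl replicate 2 left out, edgeR called 2 higher and 1 lower. Of the 15, 2 had groups without overlap on the higher side and 2 on the lower side.

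The partner that passed was TLR4, the receptor of lipopolysaccharide and of S100A8 with S100A9. It had 0.131, 0.262 and 0.204 CPM in shControl and 1.45, 1.59 and 1.65 CPM in shPUS1, a log2 fold change of 2.90 (SE 0.42, adjusted p = 0.0284, edgeR). Its shControl levels were near the level of 3 counts in a library. DESeq2 gave TLR4 a log2 fold change of 2.95 and no adjusted p. The most abundant partner, the myosin heavy chain MYH9 that S100A4 binds, had 157 FPKM and differed by -0.08 on the log2 scale (adjusted p = 0.724, edgeR).

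Calcium pumps, exchangers and channels numbered 31, of which 20 were tested. None passed with edgeR, 4 were higher and 2 lower at an unadjusted p under 0.05, and DESeq2 called 0 higher and 1 lower, beside 12.6% and 12.8% of all genes at an unadjusted p and 6.63% and 5.08% with DESeq2. The fit without shControl replicate 2 called 2 higher and 2 lower, beside 10% and 8.88% of all genes. Of the 20, 7 had groups without overlap on the higher side and 2 on the lower side, beside 18.8% and 17.3% of all genes. TMBIM6, the calcium leak protein of the endoplasmic reticulum and the most abundant of them at 104 FPKM, differed by 0.13 on the log2 scale (adjusted p = 0.440, edgeR). All 7 genes of the vitamin D receptor system, through which vitamin D acts on its target genes, were tested, 1 was higher and 0 were lower with edgeR, against 1 and 0 at an unadjusted p and 1 and 0 with DESeq2. With shControl replicate 2 left out, edgeR called CYP24A1 higher and RXRB lower. Of these 7, 3 had groups without overlap on the higher side and 0 on the lower side, beside 18.8% and 17.3% of all genes. CYP24A1, the enzyme that breaks down active vitamin D and a classic target of its receptor, had 2.29, 1.57 and 1.57 CPM in shControl and 4.90, 4.71 and 4.31 CPM in shPUS1 (log2 fold change 1.36, SE 0.27, adjusted p = 0.0467, edgeR). The most abundant gene of that list, PDIA3, a membrane binder of vitamin D, differed by 0.03 on the log2 scale (adjusted p = 0.885, edgeR).

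Over the 140 genes of these lists, 89 were tested, 4 were higher and 1 was lower with edgeR, beside 1.74% and 0.841% of all genes, and the median log2 fold change was 0.02. Leaving out shControl replicate 2 gave 11 higher and 10 lower, beside 10% and 8.88% of all genes. Of the 89, 22 had groups without overlap on the higher side and 15 on the lower side, beside 18.8% and 17.3% of all genes. CALB2, EFHD2, ANXA3, TLR4 and CYP24A1 kept their direction in each fit that left out 1 library. They were also called without shControl replicate 2, while none of them was called without shControl replicate 1 or without any one of the shPUS1 libraries, and CALB2 and CYP24A1 were not called without shControl replicate 3 either. CYP24A1 also lost its call with library totals in place of TMM (adjusted p = 0.0525, edgeR).

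**Figure D4:**
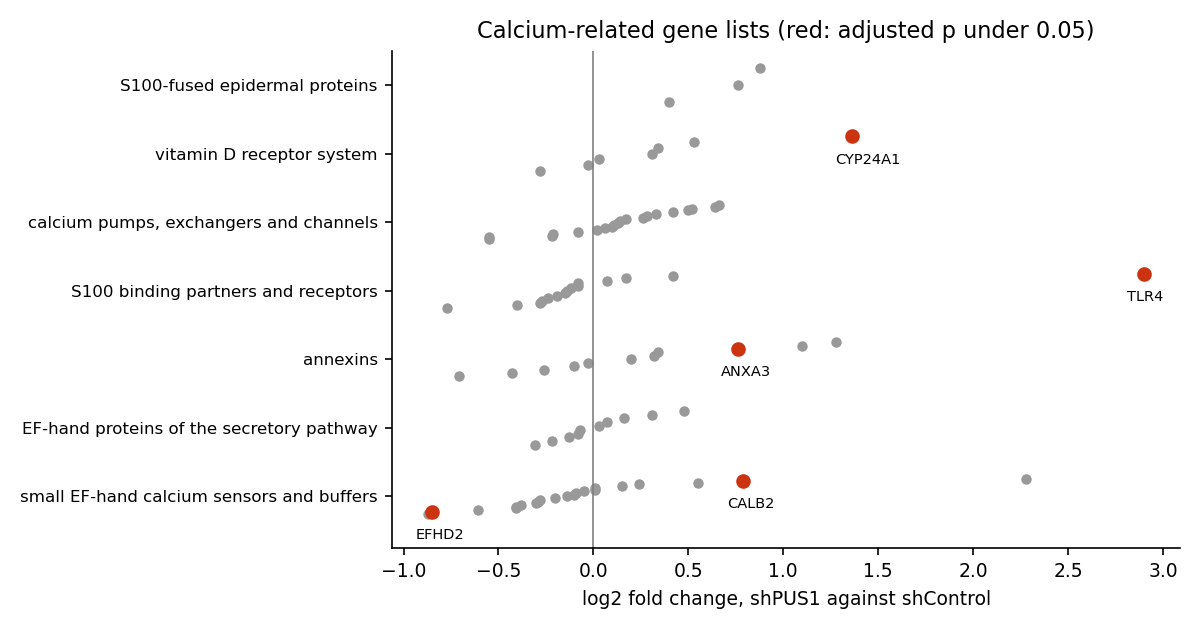
Log2 fold change of shPUS1 against shControl (horizontal axis) for the tested genes of the 7 lists outside the S100 family (vertical axis), with genes at an adjusted p under 0.05 by edgeR in red and named. The grey points spread on both sides of 0 in most lists, and TLR4 at 2.90 is the farthest red point.

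The genes whose profile was most like that of CALB1 were sought by the root mean square difference of log2 CPM over the 6 libraries, each gene centred on its mean. The nearest with a symbol were LINC01583 (0.77), RARB (0.82), ALPP (0.86), AKR1C1 (0.87) and RELN (0.87). LINC01583 is a long non-coding RNA, RARB a retinoic acid receptor, ALPP the placental alkaline phosphatase, AKR1C1 a steroid reductase and RELN the secreted protein reelin. RARB had 4.39, 0.944 and 3.95 CPM in shControl and 23.3, 31.8 and 26.0 CPM in shPUS1. Like CALB1, it was lowest in shControl replicate 2 and highest in shPUS1 replicate 2. Their log2 fold changes lay between 2.85 for LINC01583 and 4.83 for ALPP, with 3.15 for RARB, 3.53 for AKR1C1 and 3.73 for RELN. Leaving out 1 library moved several of the folds, taken off the log2 scale, by over 1.5 times. On the log2 scale LINC01583 went to 2.21 without shControl replicate 2, and AKR1C1 to 4.42 and ALPP to 5.45 without shControl replicate 1. RELN went to 4.35 without shControl replicate 3. These genes were chosen by their likeness to CALB1 over the same libraries, so the differences are a description and no p is given. AKR1C1 shares 16.7% of its 100-base stretches with other genes, and AKR1C2 holds the most of these. For ALPP the share is 12.7%, and ALPG holds the most. Reads of AKR1C1 and ALPP may thus be split with other genes.

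**Figure D5:**
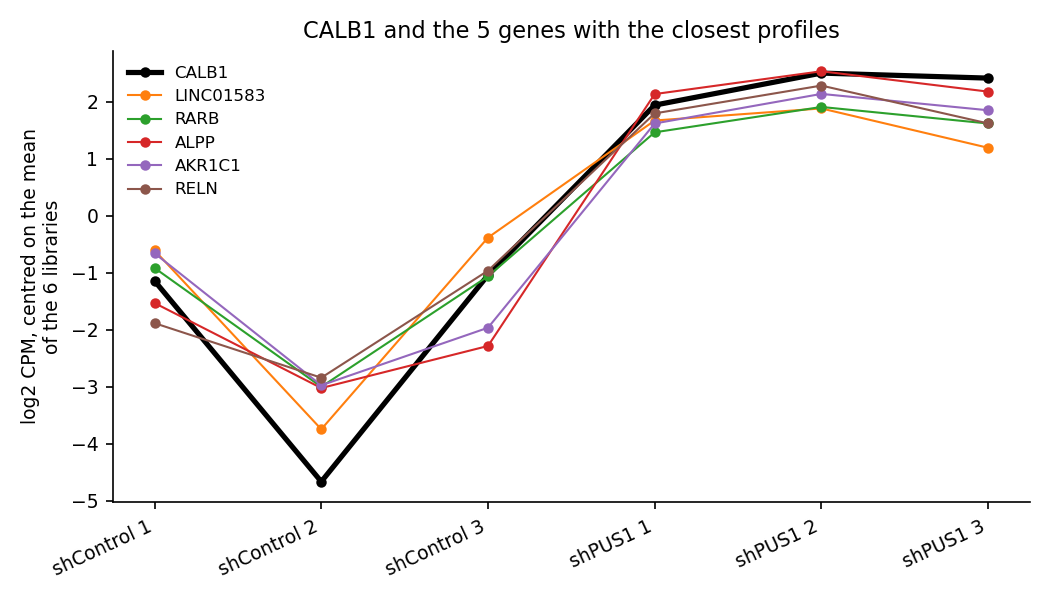
Log2 CPM of CALB1 (thick black line) and of the 5 genes with the closest profiles in each library, centred on each gene's mean of the 6 libraries (vertical axis). All 6 lines are lowest in shControl replicate 2 and above 1 in the 3 shPUS1 libraries.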

How the data were processed

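Per the study's methods, poly(A) RNA was sequenced as paired reads, aligned with HISAT2 and counted with HTSeq 0.6.1. The genome build, the annotation and the use of strand are not given in the sources used here. The authors deposited estimated counts per gene, partly not whole numbers, and FPKM, which were reproduced from the counts, exonic lengths and library totals within 0.005. Of the counts above 0, between 29.8% and 31.8% per library were not whole, and how they were estimated is not given in the study's methods. No per-sample column was left unused (0).

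Counts were rounded and tested with edgeR 4.0.16 in R 4.3.3 (filterByExpr, TMM, quasi-likelihood test, Benjamini-Hochberg adjustment over 14748 genes), a script checked on simulated data. DESeq2 1.42.0, the study's tool, and limma 3.58.1 served as alternatives. Intervals and floors of 3 counts cover counting error only. Residuals of libraries with the same number correlated at -0.0529, -0.0256 and -0.19, so the numbers did not pair them.

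The members and all lists were chosen with earlier results of these data known. Named were PUS1, the members, S100 genes that passed the filter, per list the most abundant gene and up to 4 with the smallest adjusted p under 0.05, genes that overlap a member, and the 5 profiles nearest to CALB1. Marker genes, S100A1, other S100 genes that were not tested and genes called without shControl replicate 2 are named beside these, after their values were seen. Shared stretches of 100 bases were sought in GENCODE 29 transcripts. Sequences are from RefSeq. Some genes of the lists are not reported here by name.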

Additional observations from a re-analysis of the deposited data

How the results depend on the processing

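Counts of called genes depended strongly on the setting. All genes at an adjusted p under 0.05 numbered 256 higher and 124 lower, and with a log2 fold change of at least 1 in size 131 and 71. DESeq2 gave 980 and 750, or 249 and 240 with the fold limit, and edgeR without the filter on low counts gave 756 and 528, or 293 and 243. Library totals without TMM gave 164 higher. limma on log2(FPKM + 0.1) gave 134 higher, and 68 higher and 44 lower with the fold limit. limma on log2(FPKM + 1) gave 71 higher and 16 lower with the fold limit, and with a mean FPKM of at least 5 it gave 169 higher, and 43 higher and 9 lower with the fold limit. Of the listed genes other than the members, 4 were higher and 1 was lower. DESeq2 called 5 of them lower, and edgeR without the filter 3.

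Leaving out 1 library gave between 0 and 1483 genes higher and between 0 and 1330 lower, or between 0 and 246 and between 0 and 251 with the fold limit, and among the listed genes between 0 and 11 higher and between 0 and 10 lower. The highest counts came without shControl replicate 2. The lowest came without shPUS1 replicate 3, with 1402 genes higher and 1179 lower at an unadjusted p under 0.05. In fits with 1 group of 2 libraries fewer degrees of freedom remain, and the cause of these swings was not tested.

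With the replicate number as a block, although the numbers did not pair the libraries, 18 genes were higher and 0 lower, also with the fold limit (18 and 0), and of the listed genes 0 were higher and 0 lower. At an unadjusted p under 0.05 the block gave 1561 and 1254 genes. PUS1 had a log2 fold change of -1.55 with the block (adjusted p = 0.0969), and CALB1 of 4.27.

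CALB1 kept its direction in all 13 alternatives that gave it a value, between 3.46 and 4.55 when 1 library was left out, and at 1.73 with limma on log2(FPKM + 1), where the pseudocount exceeds its control level. PUS1 had -1.48 with limma on log2(FPKM + 0.1) (adjusted p = 0.0514) and -1.0 on log2(FPKM + 1) (adjusted p = 0.0544), and between -1.86 and -1.20 when 1 library was left out. With a mean FPKM of at least 5, CALB1 and PUS1 gave no value. The sign was the main one in 7 of 14 alternatives for S100A11 and in 13 of 14 for S100A6 and S100A10. S100A13 lay between -0.06 and 0.04 in its 14 alternatives. S100A3 had adjusted p between 0.00257 and 0.261. S100A14 and S100P had too few counts for the filter, and whether depth limits them was not tested.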
